A study of Coturnix japonica with 29 samples.

Results

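The genes described here are 150 weakly expressed genes whose level differed most from bird to bird among quail that had been injected with saline only. They were chosen on their measured values. Of the 21561 genes in the count table, 3831 had a mean of at least 1 CPM (counts per 1000000 reads of the library) over the 10 M_LPS libraries and a median below 10 CPM over the 19 M_SAL and M_LPS libraries. These 3831 genes were ranked by the variance of log2(CPM + 1) within M_LPS, and the first 150 are the members. The other 3681 genes that met the same limits on level are called the other low genes. Because M_LPS set the ranking, the members' large spread in that group is a consequence of the choice and not a result. Their co-variation did not set the ranking, and neither did any F_LPS value. M_SAL entered only through the cap on the median.

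The libraries came from RNA of the red, plasma-free portion of blood, drawn from the wing (brachial) vein of adult female Japanese quail (Coturnix japonica). All females spent 3 h with a male before bleeding. F_LPS held 10 libraries from females given lipopolysaccharide (LPS) and placed with saline-treated males. M_LPS held 10 libraries from saline-treated females placed with LPS-treated males, and M_SAL held 9 libraries from saline-treated females placed with saline-treated males. M_LPS and M_SAL females were therefore injected, with saline, and are not uninjected birds. F_LPS against M_SAL asks about the female's own LPS injection with the male's treatment held alike. LPS comes from the outer membrane of certain bacteria and is used to set off an acute sickness response. The p-values measure the spread between these libraries.

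Red blood cells of birds keep a nucleus and go on making RNA, so they contribute much of the RNA of avian blood. The red portion of spun blood can also carry white cells and thrombocytes, the nucleated clotting cells of birds. In a bulk library a gene can be low because few cells express it or because many cells express it weakly, and fewer cells of a type and less RNA per cell cannot be told apart. The table names genes by Ensembl identifier only. None of the 21561 identifiers (0) could be paired with a symbol through the reference table of 20956 quail genes, so no member is given a name or a function, and the red cell identity of the libraries was not checked against marker genes.

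Library totals ran from 8898747 to 14366101 reads. Depth for these genes was small: the members together took 0.0529 to 0.404% of the reads in M_LPS, 0.0481 to 0.322% in M_SAL and 0.0510 to 0.116% in F_LPS. At least 1 library had no read for 71 of the 150 members, and 2 members had no read in any F_LPS library. The variance within M_LPS ran from 8.37 at rank 1 to 1.72 at rank 150. The member at rank 150 ranged from 2.39 to 40.2 CPM in M_LPS with a median of 5.97. The first gene left out had a variance of 1.71 and ranged from 0 to 15.5 CPM with a median of 1.23.

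The 150 members fell into 2 kinds. Average linkage on 1 minus Pearson's r of log2(CPM + 1) within M_LPS, cut at a height of 0.5, gave 1 group of 90 members, and the next group held 5. The size of this group depended on M_LPS 6 and 7: it was 49 members without M_LPS 7, and ranking and grouping again without both gave a largest group of 12, of which 5 were among the 90. The 90 are called the co-varying members and the other 60 the scattered members. The co-varying members rose and fell together from bird to bird, while the high birds of the scattered members differed from one member to the next, apart from a few pairs. The steepest ranks were mostly scattered: 8 of the first 10 members, 17 of the first 25 and 32 of the first 50, against 48 of the first 100.

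**Figure D1:**
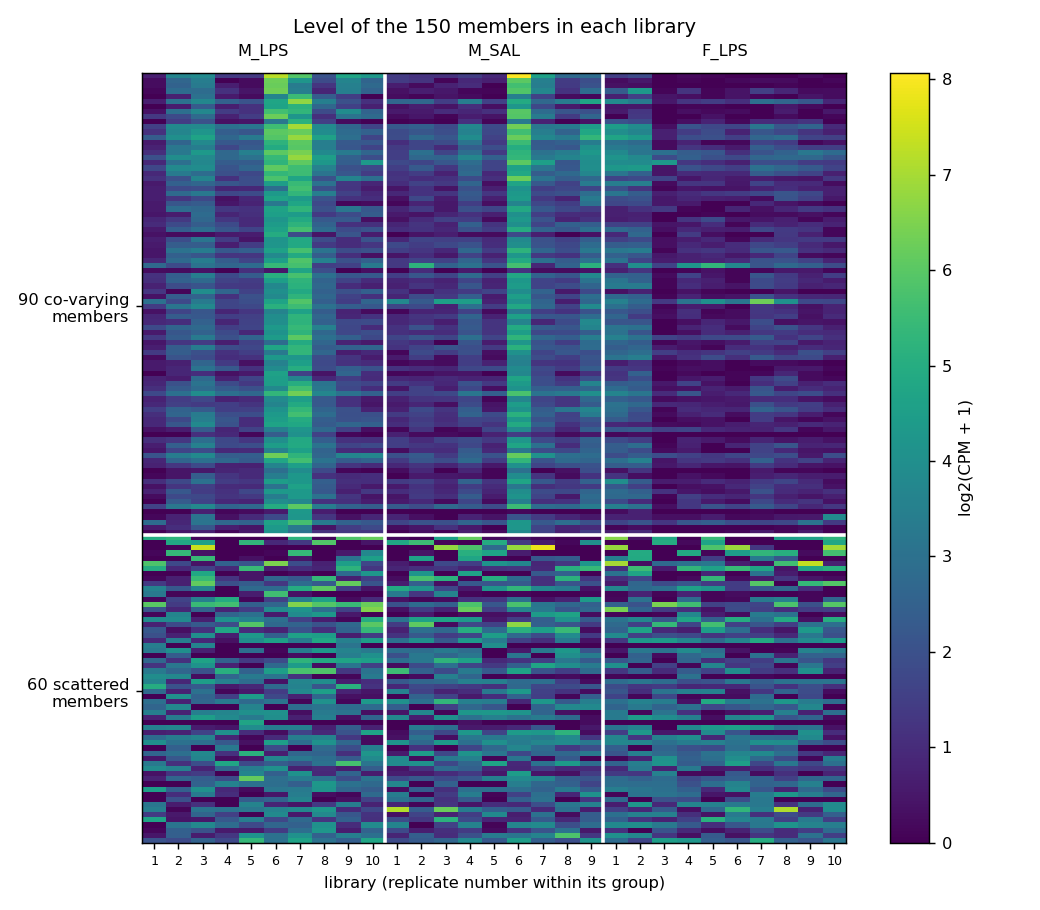
Level of each of the 150 members (rows) in each of the 29 libraries (columns, by replicate number within group), as log2(CPM + 1) on the color scale. The 90 co-varying members light up together in M_LPS 6 and 7 and in M_SAL 6, while the 60 scattered members show no shared column.

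A few birds carried the co-varying members at a high level. Their mean log2(CPM + 1) was 5.01 in M_LPS 7 and 4.38 in M_LPS 6, against 0.83 to 2.71 in the other 8 M_LPS libraries. These M_LPS values are a description, since M_LPS chose and grouped the genes. M_SAL did not rank or group the genes, but it entered their choice through the cap on the median. That cap favors genes that are low in most saline libraries. In M_SAL the mean was 4.43 in library 6 and 0.97 to 2.57 in the other 8 libraries. Library M_SAL 6 thus stood where the pair of high M_LPS libraries stood. In F_LPS the mean was 2.21 and 2.18 in libraries 1 and 2 and 0.47 to 1.36 in the other 8. F_LPS 1 and 2 were therefore high only within F_LPS. They lay below the highest bird of either saline group and within the range of the other 8 libraries of each. All 90 members were highest in M_LPS 7 (71 members) or M_LPS 6 (19 members), and 88 of 90 were highest in M_SAL 6 among the M_SAL libraries. Within F_LPS, library 1 was highest for 45 and library 2 for 35 of the 90.

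**Figure D2:**
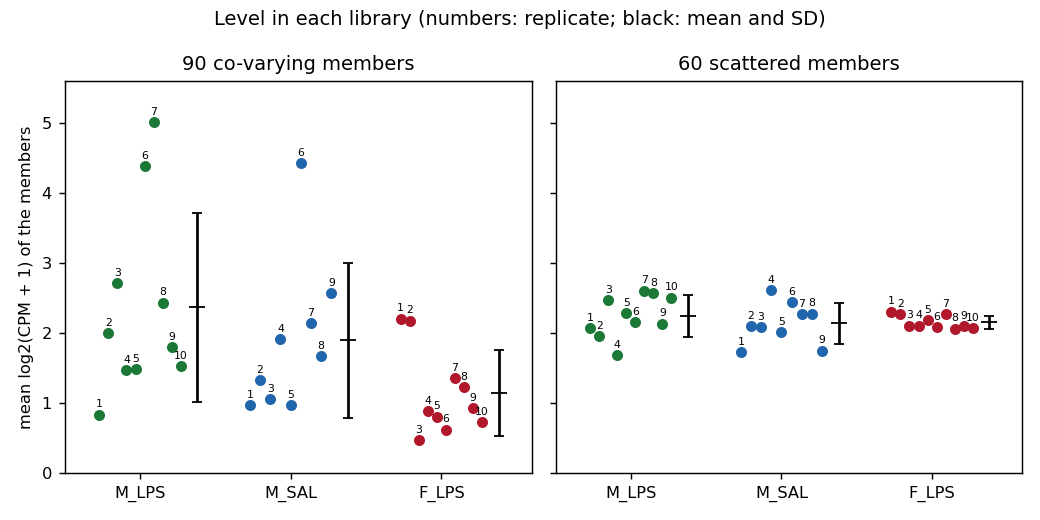
Mean log2(CPM + 1) of the co-varying members (left) and of the scattered members (right) in each library, 1 point a library, with the replicate number above it and the group mean and SD in black. The left panel shows M_LPS 6 and 7 and M_SAL 6 above 4, and the right panel shows every library between 1.68 and 2.61.

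The same libraries also stood apart in other measures, and the part of these in the result was not tested. After every library was thinned to 8898747 reads, 13897 genes had a read in M_LPS 7, against 11926 to 13004 in the other M_LPS libraries, although M_LPS 6 was within that range at 12849. M_SAL 6 had 13419 and the other M_SAL libraries 11996 to 12782. F_LPS 1 and 2 had 12591 and 12641, and the other F_LPS libraries 11809 to 12299. F_LPS 1 and 2 also had the lowest F_LPS shares of reads in the 93 genes called higher in F_LPS than in M_SAL. The shares were 1.49 and 1.66%, against 2.01 to 3.57% in the other F_LPS libraries. These 93 genes were called with the same libraries, so the shares are a description only. The number of co-varying members without a read ran from 0 to 28 in F_LPS libraries, from 0 to 9 in M_LPS and from 0 to 7 in M_SAL.

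The co-variation seen in M_LPS was also present in birds that played no part in finding it. Among the 90 co-varying members the median Pearson r between 2 genes was 0.880 over the 9 M_SAL libraries (quartiles 0.804 and 0.930) and 0.734 over the 10 F_LPS libraries (quartiles 0.505 and 0.856). It was 0.884 in M_LPS, where r defined the group. The median over pairs of other low genes was 0.0961 in M_SAL and 0.0753 in F_LPS. Those genes were not matched for spread: their median SD was 0.56 against 1.20 in M_SAL and 0.50 against 0.80 in F_LPS. An r of 0.7 or more was reached by 88.9% of co-varying pairs in M_SAL and 55.2% in F_LPS, against 4.37% and 2.69% of pairs of other low genes. Scattered members were close to uncorrelated, with a median r of 0.0167 in M_SAL and -0.00844 in F_LPS. The points behind each r share libraries and depth, and no p is attached to them.

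**Figure D3:**
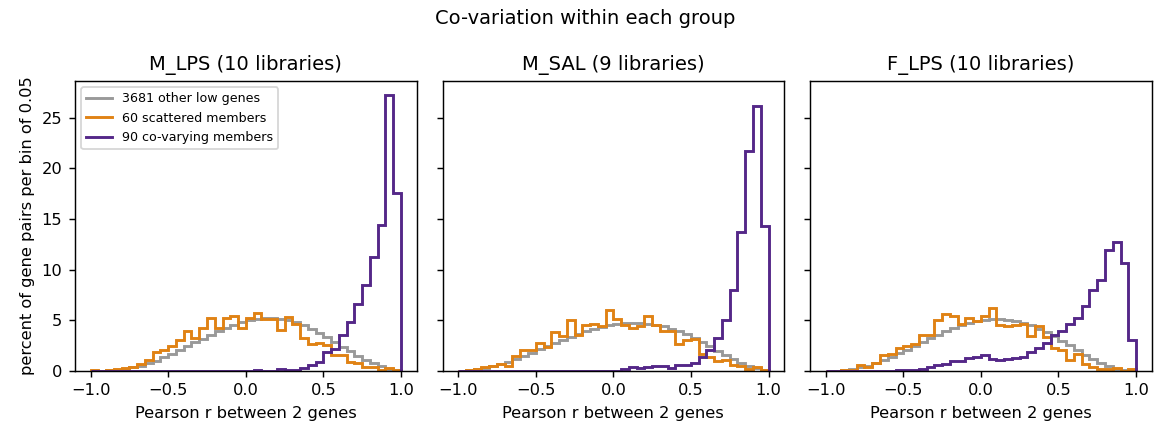
Distribution of Pearson r of log2(CPM + 1) between 2 genes within each group, as the percent of gene pairs in each bin of 0.05. Co-varying pairs pile up near 0.9 in M_LPS and M_SAL and spread lower in F_LPS, while scattered pairs and pairs of other low genes center near 0.

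Part of this correlation rested on the high birds. Without M_SAL 6 the median r among co-varying members in M_SAL was 0.680, against 0.0525 for the other low genes. Without F_LPS 1 and 2 the F_LPS median was 0.417, against 0.0647. In M_SAL and F_LPS, which did not define the group, the co-varying members thus had a higher median r than the other low genes with and without the high birds. In M_LPS, whose values chose and grouped the genes, it was 0.622 without libraries 6 and 7, against 0.118, which is a description only.

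Genes outside the 150 moved with the co-varying members as well. An r of at least 0.7 with their mean in M_SAL and in F_LPS alike was found for 69 of the 90 co-varying members themselves (76.7%) and for 0 of the 60 scattered ones. It was found for 144 of the 3681 other low genes (3.91%). The variance limit therefore left a number of genes of like pattern outside the list.

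The next comparison was F_LPS against M_SAL, in which neither group had ranked the members. M_LPS, which chose the members and the genes tested, held saline-treated females, as did M_SAL. Genes with reads mainly after LPS could therefore be left out, while genes with reads mainly in saline-treated females could enter. The choice can thus tilt the counts toward lower in F_LPS, and how far it did was not tested. Of the 150 members, 14 fell and 0 rose in F_LPS (edgeR's quasi-likelihood test with p adjusted by Benjamini and Hochberg over 9774 genes, called below 0.05). The members' shares are read against a background of 0.645% of all genes tested called lower and 0.952% called higher, and 9.33% of the members were called lower. All 14 were co-varying members, 15.6% of the 90, and 0 of the 60 scattered members were called (edgeR, smallest adjusted p 0.155). Because the co-varying members move together, these 14 are not separate differences, and their share is not one of independent genes. Among the other low genes 37 of 3681 were called lower (1.01%) and 17 higher (0.462%). At an unadjusted p below 0.05 in edgeR, 45 of the 150 members were lower and 4 higher. Among the 9774 genes tested, 578 were lower and 554 higher at that limit. Of the 45 lower members, 42 were co-varying members, which move together. DESeq2 called 14 members lower, of which 10 were shared with edgeR, and 0 higher, with no adjusted p for 1 member. DESeq2 called 1.15% of all genes tested lower.

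**Figure D4:**
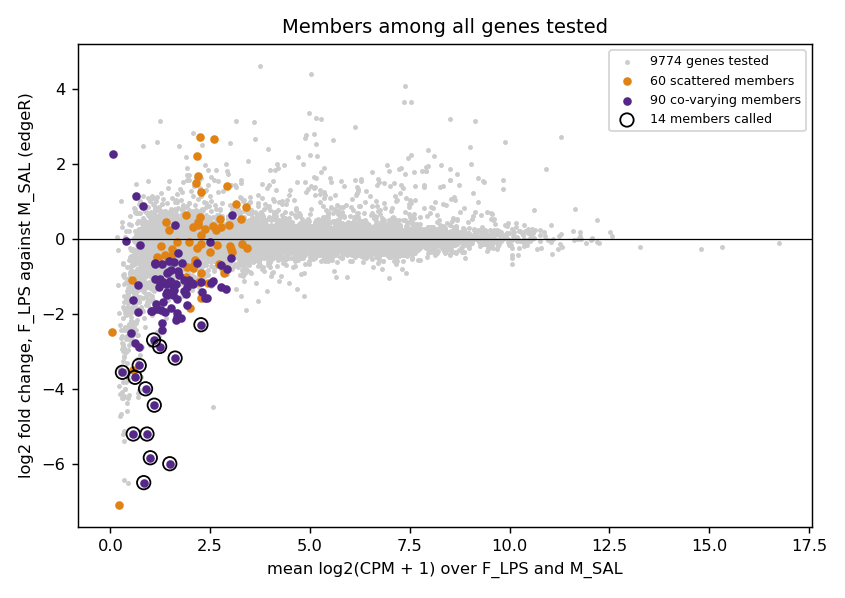
Log2 fold change of F_LPS against M_SAL (edgeR) by mean log2(CPM + 1) over both groups, for the 9774 genes tested in grey, with the scattered and co-varying members in color and the 14 called members ringed. All ringed members lie below -2 and all are co-varying.

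As a set the co-varying members did not separate the groups. The mean log2(CPM + 1) of the co-varying members was 1.14 ± 0.61 in F_LPS (SD, n = 10) and 1.89 ± 1.10 in M_SAL (SD, n = 9). The 2 groups overlapped, since F_LPS 1 and 2 lay above 7 of the 9 M_SAL libraries, and the difference of -0.75 is smaller than the SD in M_SAL. The mean over libraries was numerically lower in F_LPS for 84 of the 90 co-varying members (93.3%), for 34 of the 60 scattered members (56.7%) and for 66.4% of all genes tested. Because the co-varying members move together, these 84 are not separate differences, and most of them did not pass the test. The median difference over the co-varying members was -0.74, over the scattered members -0.08, over the other low genes -0.11 and over all genes tested -0.08. The scattered members as a set had a mean of 2.15 ± 0.093 in F_LPS (SD, n = 10) and 2.14 ± 0.29 in M_SAL (SD, n = 9).

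This difference and the number of calls moved with the libraries used. Without M_SAL 6 the difference of means of the co-varying members was -0.44, without F_LPS 1 and 2 it was -1.02, and without all 3 of these libraries it was -0.70. These libraries were the highest of their groups in this same mean. The direction of the shift without M_SAL 6, and of that without F_LPS 1 and 2, was therefore fixed by the choice. The number of members called lower was 6 without M_SAL 6, 22 without F_LPS 1 and 2, and 15 without all 3, while 0.286%, 0.839% and 0.532% of all genes tested were called lower (edgeR). Libraries that did not stand out mattered too: without any 1 of F_LPS 3 to 10 the count was 6 to 8, and without M_SAL 7 it was 9. Over all genes tested, 34 to 54 genes were called lower without any 1 of F_LPS 3 to 10 and 58 without M_SAL 7, against 63 with all libraries. M_SAL 1 and 3 had more of their reads in the 93 genes called higher in F_LPS (1.36% and above) than the other M_SAL libraries (0.872 to 1.10%). Without M_SAL 1 and 3 the difference was -1.01 and 18 members were called lower, with 1.09% of all genes tested. These libraries were picked by genes called in this same comparison. Their co-varying means, 0.972 and 1.05, also lay below the M_SAL mean of 1.89. Leaving them out therefore had to widen the difference, which is a description only.

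The 14 called members had ranks from 5 to 147 and log2 fold changes of -2.28 to -6.50, with edgeR adjusted p from 0.0093 to 0.0483. Their mean ran from 0.565 to 34.4 CPM in M_SAL and from 0.0357 to 2.35 CPM in F_LPS. M_SAL 6 was the highest M_SAL library for all 14, and F_LPS 1 or 2 the highest F_LPS library for 12. Every F_LPS library lay below every M_SAL library for 1 of the 150 members (0.667%), against 0.123% of all genes tested (12 genes) and 0.163% of the other low genes (6 genes). This member, at rank 120 and among the 14, had 1.06 to 28.8 CPM in M_SAL and 0.164 to 0.948 CPM in F_LPS. At such low levels the choice of genes tested mattered: 9 of the 14 did not pass the usual low-count filter of edgeR on these libraries, and with that filter 3 of the other 5 were called, along with 0.149% of all genes then tested.

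The largest fall belonged to ENSCJPG00005007826, at rank 16. In M_SAL libraries 1 to 9 it had 0.580, 0.166, 0.689, 1.01, 0, 48.8, 9.75, 1.57 and 3.09 CPM. In F_LPS it had 0.278 CPM in library 1, 0.218 in library 2, 0.0897 in library 8 and no read in the other 7. The M_SAL values were led by library 6, and all F_LPS libraries lay below the M_SAL median, though M_SAL 5 also had no read. In M_LPS it ranged from 0.190 to 74.2 CPM with a median of 5.28. Its log2 fold change in F_LPS was -6.50 with an SE of 1.22 (edgeR adjusted p 0.0099). Without M_SAL 6 it was -4.78 (edgeR adjusted p 0.0197), and limma voom with quality weights gave -3.90 (adjusted p 0.175).

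The next largest fall belonged to ENSCJPG00005014024, at rank 5. In M_SAL libraries 1 to 9 it had 1.64, 1.25, 1.21, 1.75, 0.884, 267, 23.2, 5.81 and 6.28 CPM. In F_LPS libraries 1 and 2 it had 1.81 and 2.51 CPM, and the other 8 had 0 to 0.190 CPM. Those 8 libraries all lay below the lowest M_SAL library, while F_LPS 1 and 2 lay within the M_SAL range. In M_LPS it ranged from 0.604 to 150 CPM with a median of 12.2. Its log2 fold change in F_LPS was -5.99 with an SE of 1.36 (edgeR adjusted p 0.0296). Without M_SAL 6 it was -3.37 (edgeR adjusted p 0.105), and without any 1 of F_LPS 3 to 10 the adjusted p was 0.0517 to 0.0607.

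No single library was the highest for most of the scattered members. Their mean log2(CPM + 1) as a set ran from 1.68 to 2.61 over the 29 libraries, a mean over genes that were close to uncorrelated. Within M_LPS 1 library was the highest for at most 12 of the 60, and within M_SAL or F_LPS for at most 9. Of the 2 members without a read in F_LPS, both scattered, that at rank 34 had reads in 3 M_LPS libraries and in 1 M_SAL library, where it reached 14.6 CPM. The member at rank 64 reached 25.1 CPM in 1 M_LPS library and at most 0.276 CPM in M_SAL. Neither was called lower in F_LPS (edgeR adjusted p 0.257 and 0.499). With no read in F_LPS, their fitted fold changes depend on the prior count and are not given.

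The first-ranked member, ENSCJPG00005014492, was either well expressed or nearly absent. In M_LPS libraries 1, 2, 7 and 10 it had 31.2, 37.2, 36.3 and 72.8 CPM, library 9 lay within that range, and the other 5 had 0 to 0.112 CPM. In M_SAL it had 23.1 CPM in library 3, 68.7 in library 4 and 0 to 0.275 in the other 7. In F_LPS libraries 1 to 10 it had 96.5, 0.327, 27.3, 0, 42.8, 0, 0, 21.8, 23.5 and 36.0 CPM. No library lay between 0.327 and 21.8 CPM, and every group held libraries on both sides. The log2 fold change of F_LPS against M_SAL was 1.27 (SE 1.42, edgeR adjusted p 0.844).

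The second-ranked member, ENSCJPG00005001680, split the birds in another way. It had 27.6, 23.6, 38.9 and 57.9 CPM in M_LPS 2, 3, 5 and 8 and at most 1.55 in the other 6. It had 27.1, 45.3, 30.3 and 15.0 CPM in M_SAL 1, 2, 5 and 9 and at most 1.56 in the other 5. It had 31.2, 24.9 and 27.7 CPM in F_LPS 3, 5 and 10 and at most 0.164 in the other 7. The high libraries were thus 4 of 10, 4 of 9 and 3 of 10, and the log2 fold change of F_LPS against M_SAL was -0.73 (SE 1.39, edgeR adjusted p 0.929).

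The third-ranked member, ENSCJPG00005000881, had no read in most libraries and a high level in a few. A single M_LPS library, 3, had 171 CPM, library 2 had 0.0900 and the other 8 had no read. M_SAL 3, 4, 6 and 7 had 108, 55.9, 112 and 225 CPM, M_SAL 5 had 5.93 and the other 4 had no read. F_LPS 1, 5, 6 and 10 had 112, 55.2, 114 and 122 CPM, F_LPS 7 had 1.49 and the other 5 had no read. This gene entered the list through 1 bird of M_LPS but was high in 4 birds of each of the other groups. The log2 fold change of F_LPS against M_SAL was -0.35 (SE 1.46, edgeR adjusted p 0.977).

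Such a split was looked for in all low genes, with a rule set after the data had been seen: a gap of at least 4-fold in CPM + 1 between neighboring libraries among the 19 F_LPS and M_SAL libraries, with at least 3 libraries on each side. It was met by 11 of the 150 members (7.33%) and by 7 of the 3681 other low genes (0.190%). All 11 were scattered members, 18.3% of the 60. The gap was sought in F_LPS and M_SAL only, but it needs a wide spread there, and the members were chosen for spread in M_LPS. The scattered members also had a wider median SD than the other low genes in M_SAL (1.40 against 0.56) and in F_LPS (1.33 against 0.50). The higher share among members is therefore a description only. Of the 11, 10 had libraries on the high side in all 3 groups, and the member at rank 12 had none in M_SAL. The number of high libraries among all 29 ran from 5 to 13. The level also varied among the high libraries, with a median SD over the members of 0.45 on the log2(CPM + 1) scale. The low side was not always near 0 and reached 7.90 CPM for the member at rank 18.

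**Figure D5:**
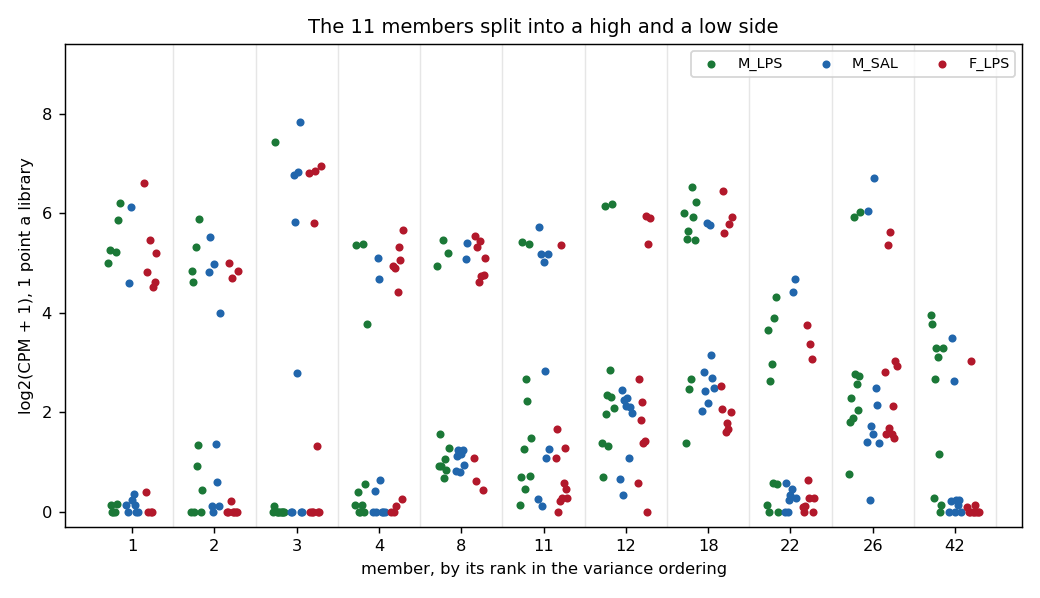
Level of the 11 members with a split in each library, as log2(CPM + 1), by variance rank, with 1 point a library colored by group. Each member has a gap without points between its low and its high libraries in F_LPS and M_SAL, and all groups except M_SAL at rank 12 have points on the high side.

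The split members had high libraries in common but no common pattern. Ranks 1 and 3, for example, were both high in F_LPS 1, 5 and 10 and in M_SAL 3 and 4. Each library had 1 to 7 of the 11 on the high side, most in F_LPS 10, and the 29 libraries showed 28 distinct combinations. Pearson's r between 2 of these members over all 29 libraries ran from -0.302 to 0.412. None of the 11 was called between F_LPS and M_SAL (edgeR, smallest adjusted p 0.199).

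A few pairs of scattered members did move as 1. Among the 1770 pairs, 5 had an r of 0.8 or more over all 29 libraries. The closest pair, named after its values were seen, was ENSCJPG00005008294 and ENSCJPG00005008293, at ranks 6 and 10 (r = 0.986). In M_LPS 3 they had 42.3 and 27.1 CPM, in M_LPS 10 22.3 and 17.9 CPM, and in M_SAL 4 25.9 and 23.6 CPM. Both had no read in the same 14 libraries and differed by 1 in identifier number, with a median read ratio of 1.21. The other 4 pairs had r from 0.855 to 0.965 and identifier numbers 1 to 22 apart. An identifier number is not a position in the genome, and whether these pairs overlap, share reads or are near-identical copies was not tested.

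Both kinds of members kept a wide spread outside M_LPS, but not to the same degree. The median SD of log2(CPM + 1) of the scattered members was 1.40 in M_SAL and 1.33 in F_LPS, that of the co-varying members 1.20 and 0.80, and that of the other low genes 0.56 and 0.50. Without M_SAL 6 the median SD of the co-varying members in M_SAL was 0.747, against 0.515 for the other low genes. Without F_LPS 1 and 2 it was 0.502 in F_LPS, against 0.501, close to that of the other low genes. The scattered members were at 1.40 and 1.28 without those libraries.

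The same ranking was then run within the other groups on the 3831 eligible genes. The first 150 by variance in M_SAL shared 67 genes with the members (44.7% of each list), and those in F_LPS shared 48 (32.0% of each list), where 150 of 3831 is 3.92%. Of the scattered members 41 of 60 (68.3%) were on the M_SAL list and 38 (63.3%) on the F_LPS list. Of the co-varying members 26 of 90 (28.9%) and 10 of 90 (11.1%) were on them. Of the 11 split members, 10 were on each. The split rule sought a wide gap among these same F_LPS and M_SAL libraries, which favors a large variance there. The count for the split members is therefore a description only. Ranking M_LPS again without libraries 6 and 7 kept 68 of the 150 members (45.3%).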

How the data were processed

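RNA was taken from the red portion of blood after Qiazol lysis, with a Zymo column and DNase, and prepared for sequencing with the NEBNext Ultra kit, per the labels' protocols. The authors deposited raw read counts, whole numbers per Ensembl gene identifier. CASAVA 1.8.2, HISAT2 and DESeq2 appear, without roles, in the submitters' processing notes. Counter, genome build, annotation, strand setting and LPS dose were not given in the sources used here, so reads of overlapping, antisense or near-identical genes could not be told apart.

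Groups came from the treatment labels and columns were tied to samples by title; replicate numbers follow accession order and pair nothing. No library repeated another (smallest chi-square per gene 27.9 over 406 pairs). CPM is the count divided by the column total and multiplied by 1000000, and log2 values used a pseudocount of 1. Genes tested had a mean of at least 1 CPM in M_LPS (9774 genes, at least 99.7% of reads), a filter that uses neither group compared and that all 150 members pass. It is not neutral between F_LPS and M_SAL, because M_LPS females were saline-treated like those of M_SAL. F_LPS and M_SAL were compared with edgeR 4.0.16 in R 4.3.3 (TMM, robust quasi-likelihood, Benjamini-Hochberg over all genes tested). Alternatives used DESeq2 1.42.0, limma 3.58.1 voom, other filters, scalings and libraries. Scripts used Python 3.11.15 with numpy 2.4.6, scipy 1.17.1 and pandas 2.3.3. The gene test and the grouping were also run on simulated data. The gene test drew genes independently and changed only genes with a mean above 1 CPM. The grouping used a shared normal factor without planted high libraries. Co-varying low genes and groups that rest on a few libraries were therefore not covered.

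Named are the 3 members first in rank and the 2 largest called falls among members whose higher group averaged 1 CPM or more; no rise was called. Marker lists could not be used without symbols. The members and lists were chosen with earlier results of these data known. The split rule, the pairs and the libraries left out together were chosen after seeing the data. Those libraries were F_LPS 1 and 2, and M_SAL 1 and 3, each pair with or without M_SAL 6 left out too.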

Additional observations from a re-analysis of the deposited data

Results flagged for a closer look

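M_SAL 6 lay far above the other M_SAL libraries in the mean log2(CPM + 1) of the co-varying members, at 4.43 against 2.57 in the next library. This gap is 0.537 of the range from the lowest to the highest M_SAL library. Its share of reads in these members was 0.255%, against 0.0636% in the next, a gap of 0.782 of the range of that share in M_SAL. Both exceed Dixon's critical value for 9 libraries. In all 12 sets of values were examined, of which chance would mark about 0.6. The 2 marked sets measure the same genes in the same library, so they are not separate observations.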

How the results depend on the processing

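No paired analysis was made, because the labels give no pairing of libraries across the groups. No member was called higher under any alternative run, and no called value changed sign. Members called lower (14) became 3 with edgeR's own low-count filter, 8 with no filter and 5 with voom. They became 6 without M_SAL 6, 22 without F_LPS 1 and 2, 5 when ranked without M_LPS 6 and 7, and 9 with 100 members. Over all genes tested, 63 of 9774 were called lower in the main run. The counts were 14 of 9382 with the low-count filter, 53 of 16395 with no filter and 62 of 9774 with voom. Without M_SAL 6 the count was 28, and without F_LPS 1 and 2 it was 82, each of 9774. The count for 100 members comes from the main run, so 63 of 9774 is its background. No count over all genes is given for the ranking without M_LPS 6 and 7, so its 5 members cannot be read against a background. Ranking without M_LPS 6 and 7 also gave a median r over members of 0.0535 in M_SAL and 0.0224 in F_LPS, a largest group of 12 with r of 0.0801 and 0.331, and 42.7% shared with F_LPS. With 100 members the median r was 0.275 in M_SAL and 0.172 in F_LPS, with a group of 52 and 38% shared with M_SAL; with 300, a group of 177, r of 0.633 within it in F_LPS, and 56.0% and 37.7% shared. A pseudocount of 0.5 gave a median r of 0.258 in M_SAL and 0.178 in F_LPS, 0.684 among co-varying members in F_LPS, and 48.7% and 40.7% shared. Without M_SAL 6 the median r in M_SAL was 0.288 over members and 0.680 among co-varying members, with 32.0% shared, and without M_SAL 1, 3 and 6 it was 0.652 among co-varying members. Without M_SAL 1 and 3, 57.3% were shared. Without F_LPS 1 and 2, r among co-varying members in F_LPS was 0.417. In a separate setting, with Spearman's rho in place of Pearson's r, the median among co-varying members was 0.767 in M_SAL and 0.632 in F_LPS. A gap of 3 left 4 split members. The settings differ in members, genes, libraries or method, some holding fewer, some more and some the same. The cause of these shifts was not tested.

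Leaving out each library in turn gave 6 to 17 members called lower and 0 to 0 higher. Over all genes tested, 28 to 82 genes (0.286 to 0.839%) were called lower without any 1 F_LPS or M_SAL library. The median difference was -0.695 to -0.334 over members and -0.899 to -0.426 over co-varying members. The largest group held 49 (without M_LPS 7) to 101 members. Median r was 0.127 to 0.470 in M_SAL and 0.0593 to 0.328 in F_LPS over members, and 0.680 to 0.908 and 0.528 to 0.768 among co-varying members. Shares were 32.0 to 54.0% with M_SAL and 28.7 to 42.0% with F_LPS, and split members 10 to 13. Low counts limit all values under 1 CPM.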
